A study of Mus musculus with 4 samples.

Results

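Read counts of 10 genes of Hedgehog and bone morphogenetic protein (BMP) signalling were compared between mouse small intestine and colon. The genes were chosen by name, namely the ligands Ihh, Shh, Bmp2, Bmp4 and Bmp7, the Hedgehog receptor Ptch1, the transcription factors Gli1 and Foxl1, and the BMP antagonists Grem1 and Nog. All 10 were found among the 21159 condensed genes into which the exon blocks of the deposited exon table could be joined. An exon block is a merged stretch of RefSeq exon in the mouse genome build mm9. Total small intestine and total colon tissue came from C57BL/6 mice of 9 to 10 weeks without treatment or genetic change, and there was 1 library per tissue and protocol. The cDNA fragmented libraries were made by SMART cDNA synthesis from polyadenylated RNA, without strand information. The RNA fragmented libraries were made with a strand-specific whole transcriptome kit. Ribosomal RNA depletion is given in their labels. With 1 library each, no replicate error could be calculated and no test was run. Intervals given below are 95% intervals of counting error only. The study describes its tissues as taken from the same animals, but the labels do not say which mice gave which library, and differences between animals were not tested.

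Hedgehog ligands of the gut are made by the epithelium and act on the mesenchyme below it. There they bind the receptor Ptch1, which releases Smo and lets Gli transcription factors act, and Ptch1, Gli1 and Hhip are themselves targets of the pathway. BMP ligands act through receptor kinases and Smad proteins to switch on genes such as the Id genes. In the intestine BMP signalling is known to restrain growth in the crypts, where the secreted antagonists Grem1 and Nog limit it. Foxl1 is a factor of the mesenchymal cells beneath the epithelium.

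The libraries held 22484041 uniquely placed reads for cDNA fragmented small intestine, 24798934 for colon, 2035386 for RNA fragmented small intestine and 3478387 for colon, so the RNA fragmented values are less precise. Of the RNA fragmented reads, 2252802 of 36419942 in small intestine and 3799308 of 37466674 in colon were matched. By cDNA the numbers were 28296046 of 77504263 and 28353838 of 83302412. The study lists larger read totals for its RNA fragmented libraries. Levels are given as RPKM, reads per 1000 exon bases and 1000000 uniquely placed reads. On this scale the median gene lay above 0, with a median log2 ratio of colon over small intestine of 0.40 by both protocols over genes with at least 10 reads. Ratios of Ihh, Ptch1, Gli1 and Bmp2 are therefore also given relative to that median, and some of those of Bmp4, Bmp7 and Grem1 are set beside it. The tissue labels were set beside epithelial markers, which is no independent check, since the markers were chosen with earlier results of these data known. All 6 small intestine markers, among them Sis and Lct, were at least 2-fold higher in small intestine and all 5 colon markers found, among them Car1 and Aqp8, were at least 2-fold higher in colon in both protocols.

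Reads of 35 colors cover short stretches of a gene. For the 6 genes on which most of the values below rest, a coding stretch of mm9 is shown. Among start points whose 35 bases lie wholly in the coding bases of 1 exon block, it is the one with most own-strand reads in the RNA fragmented libraries. Start points elsewhere in the exons held more, with up to 16 reads for Bmp2 and 8 for Grem1 in RNA fragmented colon. The stretches are written 5′ to 3′ on the strand of the gene in lower case. These stretches lie at chr1:74992672-74992706 (minus strand) for Ihh, chr2:133387079-133387113 (plus) for Bmp2, chr14:47003681-47003715 (minus) for Bmp4, chr2:113589845-113589879 (minus) for Grem1, chr10:126767191-126767225 (minus) for Gli1 and chr13:63626380-63626414 (minus) for Ptch1.
Ihh: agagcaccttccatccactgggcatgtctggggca
Bmp2: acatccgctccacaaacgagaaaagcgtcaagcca
Bmp4: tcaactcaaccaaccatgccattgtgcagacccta
Grem1: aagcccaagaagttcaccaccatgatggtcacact
Gli1: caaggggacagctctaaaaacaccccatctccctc
Ptch1: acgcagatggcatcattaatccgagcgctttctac
The Ihh stretch was overlapped by 12 and 37 reads in cDNA fragmented small intestine and colon and by 5 and 16 reads in the RNA fragmented libraries. The Bmp2 stretch was overlapped by 7 and 15 reads, and by 5 and 27 reads, in the same order. The Bmp4 stretch was overlapped by 19 and 43 reads, and by 5 and 13 reads. At the Gli1 stretch 0 and 1 reads overlapped by cDNA and 0 and 3 by RNA fragmentation. The Ptch1 stretch had more overlapping reads in small intestine than in colon, with 3 and 1 by cDNA and 7 and 2 by RNA fragmentation. The Grem1 stretch had 5 and 2 by cDNA and 1 and 5 by RNA fragmentation, so the order of the tissues differed between the protocols. Of the 27 RNA fragmented colon reads over the Bmp2 stretch, 13 began at 1 position.

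Ihh (Indian hedgehog; chr1:74991892-74998225, minus strand, 3 exon blocks), the main Hedgehog ligand of the adult gut epithelium, was the most abundant of the 10 genes in cDNA fragmented colon. Its interval overlapped that of Bmp4 in cDNA fragmented small intestine and that of Bmp2 in both RNA fragmented libraries. It had 214 reads in small intestine and 807 in colon by cDNA fragmentation, and 76 and 224 by RNA fragmentation. These correspond to 3.89 RPKM (interval 3.39 to 4.45) and 13.3 RPKM (12.4 to 14.3), and to 15.3 RPKM (12.0 to 19.1) and 26.3 RPKM (23.0 to 30.04). Colon was higher in both protocols, with intervals that did not overlap. The ratio of colon over small intestine was 3.42 (2.94 to 3.99) by cDNA and 1.72 (1.32 to 2.27) by RNA fragmentation, so the intervals of the 2 protocols did not overlap each other. Relative to the median gene, Ihh was 1.37 higher on the log2 scale by cDNA and 0.39 by RNA fragmentation. In tissue of mixed cell types, more cells that express a gene and more RNA per cell cannot be told apart.

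Shh (Sonic hedgehog; chr5:28783380-28793888, minus strand) was close to the detection limit. No read was found in cDNA fragmented small intestine, which allows up to 0.0458 RPKM at 3 reads, and 10 reads were found in cDNA fragmented colon (0.138 RPKM, interval 0.0664 to 0.254). The colon level stood at 3.02 times the limit of 3 reads, and the counting interval of the ratio began at 2.03. The RNA fragmented libraries held 1 read and 2 reads, so a difference was not detectable at this depth. Ihh and Shh share little sequence that a read could confuse, since 1.41% of the 2342 windows of 35 bases in Ihh differed from Shh or Dhh by at most 3 bases.

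**Figure D1:**
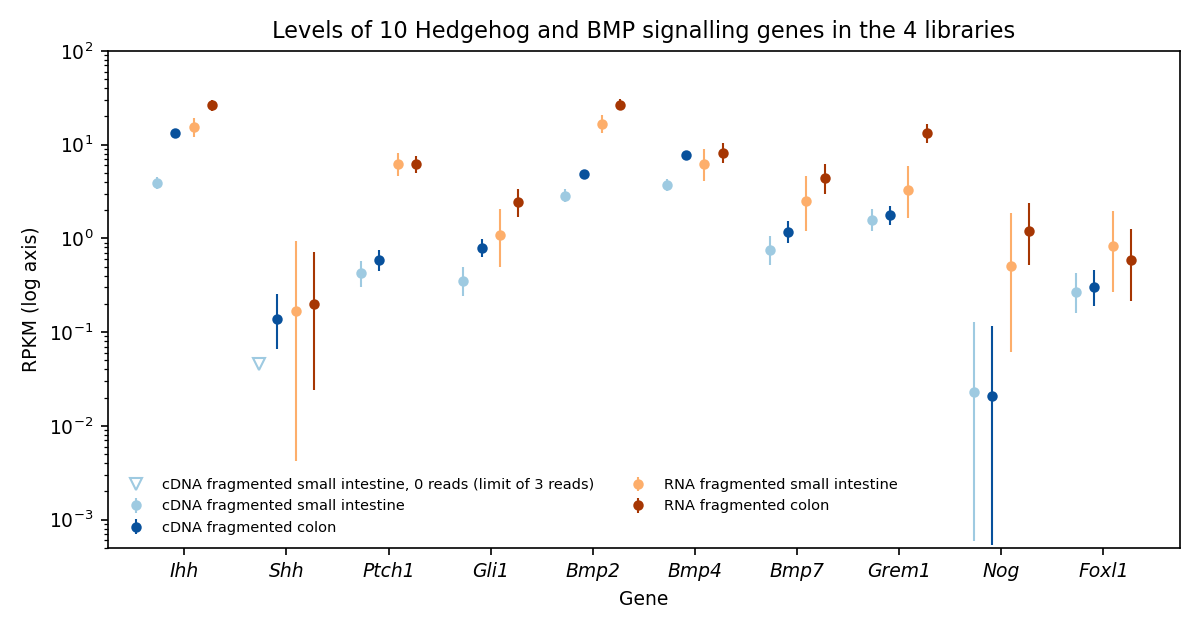
RPKM (log axis) of the 10 genes in the 4 libraries, with 95% Poisson intervals as bars and an open triangle for the limit of 3 reads where no read was found. Ihh, Bmp2 and Bmp4 lie highest in the cDNA fragmented libraries, Shh and Nog lie lowest there, and Ptch1 lies higher in the RNA fragmented than in the cDNA fragmented libraries.

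Ptch1 (chr13:63612841-63666828, minus strand, 23 exon blocks), the receptor that binds Hedgehog ligands, had 41 and 62 reads in small intestine and colon by cDNA fragmentation and 54 and 92 by RNA fragmentation. The levels were 0.424 and 0.581 RPKM by cDNA, and 6.16 and 6.14 RPKM by RNA fragmentation. Both pairs overlapped within counting error. The ratio of colon over small intestine was 1.37 (0.909 to 2.09) by cDNA and 0.997 (0.705 to 1.42) by RNA fragmentation, which leaves room for a difference of up to 1.42-fold in the latter. Ptch1 thus lay 0.05 above the median gene by cDNA and 0.40 below it by RNA fragmentation on the log2 scale (difference of -0.40). The last exon of Ptch1 in GENCODE M1, 2160 bases of 3′ UTR at chr13:63610261-63612420, is not part of the exon blocks. All Ptch1 reads, 100% in each library, therefore began in coding bases.

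Gli1 (chr10:126766555-126778635, minus strand, 13 exon blocks), a transcription factor whose transcript is a standard readout of Hedgehog signalling, was the only listed gene at least 2-fold higher in colon in both protocols. It had 32 reads in small intestine and 80 in colon by cDNA fragmentation (0.352 and 0.798 RPKM), and 9 and 34 by RNA fragmentation (1.09 and 2.42 RPKM). The ratio was 2.27 (1.49 to 3.53) by cDNA and 2.21 (1.04 to 5.24) by RNA fragmentation, or 0.78 and 0.75 above the median gene on the log2 scale. Its last exon block shares 445 bases (chr10:126766555-126766999) with Arhgap9 on the opposite strand. Of the cDNA fragmented reads, 25 of 32 and 48 of 80 began in those bases, and these libraries carry no strand. Without the shared bases 7 and 32 reads were left, with a ratio of 4.14 (1.80 to 11.1). In the RNA fragmented libraries 3 reads of each tissue lay on the strand of Arhgap9, all in the shared bases, and the 6 and 31 reads on the strand of Gli1 lay outside them, with a ratio of 3.02 (1.24 to 8.86). Gli1 was no longer past 2-fold in both protocols under median-of-ratios size factors, by start points, with at most 1 color mismatch, with own-strand reads alone or with unshared exon blocks. The log2 ratios by cDNA and RNA fragmentation, 1.18 and 1.14 as reported, were 0.78 and 0.80 under the size factors, 1.13 and 0.98 by start points, 1.39 and 0.75 with at most 1 mismatch, and 0.71 and 1.60 with own-strand reads. With unshared blocks the RNA value was 0.64 and no cDNA value was left. Colon thus stayed higher wherever a value was left, and by start points the RNA value fell just under the threshold of 1.

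Foxl1 (chr8:123651585-123654544, plus strand, 1 exon block) had 18 and 22 reads by cDNA fragmentation and 5 and 6 by RNA fragmentation in small intestine and colon. The levels were 0.270 and 0.300 RPKM by cDNA, and 0.830 and 0.583 RPKM by RNA fragmentation. The ratio was 1.11 (0.567 to 2.19) and 0.702 (0.179 to 2.91), so neither a change nor its absence was shown at this depth. GENCODE M1 lists Foxl1 as a pseudogene, so no coding share was calculated for it.

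Bmp2 (chr2:133378935-133388621, plus strand, 3 exon blocks), a BMP ligand, was higher in colon in both protocols. Its reads numbered 161 and 301 by cDNA fragmentation and 85 and 233 by RNA fragmentation. The levels were 2.85 RPKM (2.42 to 3.32) in small intestine and 4.83 RPKM (4.30 to 5.40) in colon by cDNA, and 16.6 RPKM (13.3 to 20.5) and 26.6 RPKM (23.3 to 30.3) by RNA fragmentation. The intervals of the tissues did not overlap in either protocol. The ratio was 1.70 (1.40 to 2.07) and 1.60 (1.25 to 2.08), close to each other and 0.36 and 0.28 above the median gene on the log2 scale. By start points, 151 and 249 by cDNA and 59 and 123 by RNA fragmentation, the RNA log2 ratio was 0.29 in place of 0.68.

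Bmp4 (chr14:47002975-47010274, minus strand, 4 exon blocks), a BMP ligand of the gut mesenchyme and a known Hedgehog target there, had 184 and 425 reads by cDNA fragmentation and 28 and 63 by RNA fragmentation. The levels were 3.70 RPKM (3.18 to 4.27) and 7.74 RPKM (7.02 to 8.51) by cDNA, and 6.21 RPKM (4.13 to 8.98) and 8.18 RPKM (6.29 to 10.5) by RNA fragmentation. Colon lay above small intestine by cDNA fragmentation, while the intervals of the tissues overlapped by RNA fragmentation. The ratio was 2.09 (1.76 to 2.50) and 1.32 (0.831 to 2.13). The RNA value equals the ratio of the median gene, 1.32, or 0.40 on the log2 scale. That log2 ratio was 0.87 by start points, 0.75 with unshared exon blocks, 0.71 with at most 1 color mismatch and 0.55 after thinning. It was 0.37 with own-strand reads and 0.05 under median-of-ratios size factors. All of these values lay within its counting interval. Reads in the 309 bases shared with Gm15217 (chr14:47002975-47003283) numbered 6 and 3 by cDNA and 2 and 1 by RNA fragmentation, and without them the ratios were 2.15 and 1.40.

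Bmp7 (chr2:172695189-172765794, minus strand, 7 exon blocks), another BMP ligand, had 33 and 57 reads by cDNA fragmentation (0.747 and 1.17 RPKM) and 10 and 30 by RNA fragmentation (2.50 and 4.39 RPKM). The ratio was 1.57 (1.003 to 2.48) and 1.76 (0.835 to 4.03). Colon was higher in both protocols by a similar factor, but the RNA interval includes 1. The intervals of both protocols include the ratio of the median gene, 1.32.

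Grem1 (gremlin 1; chr2:113588832-113598805, minus strand, 2 exon blocks), a secreted BMP antagonist made by mesenchyme and muscle cells near the crypts, differed between the protocols. By cDNA fragmentation it had 58 reads in small intestine and 72 in colon, or 1.57 RPKM (1.20 to 2.03) and 1.77 RPKM (1.39 to 2.23). By RNA fragmentation it had 11 and 76 reads, or 3.30 RPKM (1.65 to 5.90) and 13.3 RPKM (10.5 to 16.7). The tissues overlapped in the first protocol and were apart in the second. The ratio was 1.13 (0.785 to 1.62) by cDNA and 4.04 (2.14 to 8.44) by RNA fragmentation, and these intervals did not overlap. The cDNA ratio lay below that of the median gene, 1.32, which its interval includes. All 76 RNA fragmented colon reads lay on the strand of Grem1 and came from 50 start points.

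Nog (noggin; chr11:89161952-89163873, minus strand, 1 exon block), the other BMP antagonist, was near the limit in every library, with 1 read in each cDNA fragmented library and with 2 and 8 reads in RNA fragmented small intestine and colon. The RNA fragmented levels were 0.511 RPKM (0.0619 to 1.85) and 1.20 RPKM (0.517 to 2.36), and the ratio of 2.34 had an interval from 0.467 to 22.6.

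Counted by fixed thresholds, 4 of the 9 listed genes with at least 10 reads in the cDNA fragmented libraries together were at least 2-fold higher in colon (Ihh, Shh, Gli1 and Bmp4), where 27.1% of all 15122 genes were. By RNA fragmentation 3 of 9 were (Gli1, Grem1 and Nog), where 29.3% of 13255 genes were. Which genes passed depended on the setting. By cDNA the call of Bmp4 was lost under median-of-ratios size factors, by start points and with own-strand reads (log2 ratios of 0.66, 0.88 and 0.75 against 1.07), and that of Shh by start points, with at most 1 color mismatch, with own-strand reads and at a minimum of 20 reads. By RNA fragmentation Bmp2, Bmp7 and Grem1 passed with at most 1 mismatch, and Nog did not pass there, by start points, under the size factors, after thinning or at 20 reads. None was at least 2-fold higher in small intestine, against 9.99% and 12.8% of all genes. In both protocols together, 1 of 8 was higher in colon (Gli1), where 14.4% of 13053 genes were, and 0 of 8 in small intestine, where 5.24% were. By a 3-fold rule with a penalty of 1 RPKM in the divisor, as in the methods of the study, none of 8 listed genes was called by cDNA in either direction (all genes 3.25% for colon and 2.84% for small intestine). By this rule a gene needs at least 3 RPKM in the higher tissue to be called. By cDNA only Ihh, Bmp4 and Bmp2 reached that level in colon, and only Ihh and Bmp4 in small intestine. The other listed genes could thus not be called by cDNA, whatever their ratio. By RNA fragmentation 1 of 8, Grem1, was called for colon (all genes 6.42%) and 0 for small intestine (3.86%). This call of Grem1 was lost under median-of-ratios size factors, with at most 1 color mismatch and after thinning of the deeper library. The penalised ratio was 3.10, just above the threshold of 3, and the log2 ratio, 2.02 as reported, was 1.67, 1.84 and 1.90 under these settings. Read against these shares, the counts do not set the listed genes apart from the other genes. The 2-fold split of all genes depends on the scaling. Under median-of-ratios size factors 17% were higher in colon and 15.8% in small intestine by cDNA, and 20.6% and 18.6% by RNA fragmentation. Of the listed genes, 2 (Ihh and Shh) and 1 (Grem1) then remained at least 2-fold higher in colon and 0 in small intestine.

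Of the 8 listed genes with a ratio in both protocols, 6 were higher in colon in both (Ihh, Gli1, Bmp2, Bmp4, Bmp7 and Grem1), 0 in small intestine in both, and 2 (Ptch1 and Foxl1) lay on opposite sides. Among 12797 genes, 50.1% were higher in colon and 19.2% higher in small intestine in both protocols. Under median-of-ratios size factors, which lower the log2 ratio by 0.40 by cDNA and 0.34 by RNA fragmentation, Grem1 and Foxl1 turned to the small intestine side by cDNA fragmentation.

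**Figure D2:**
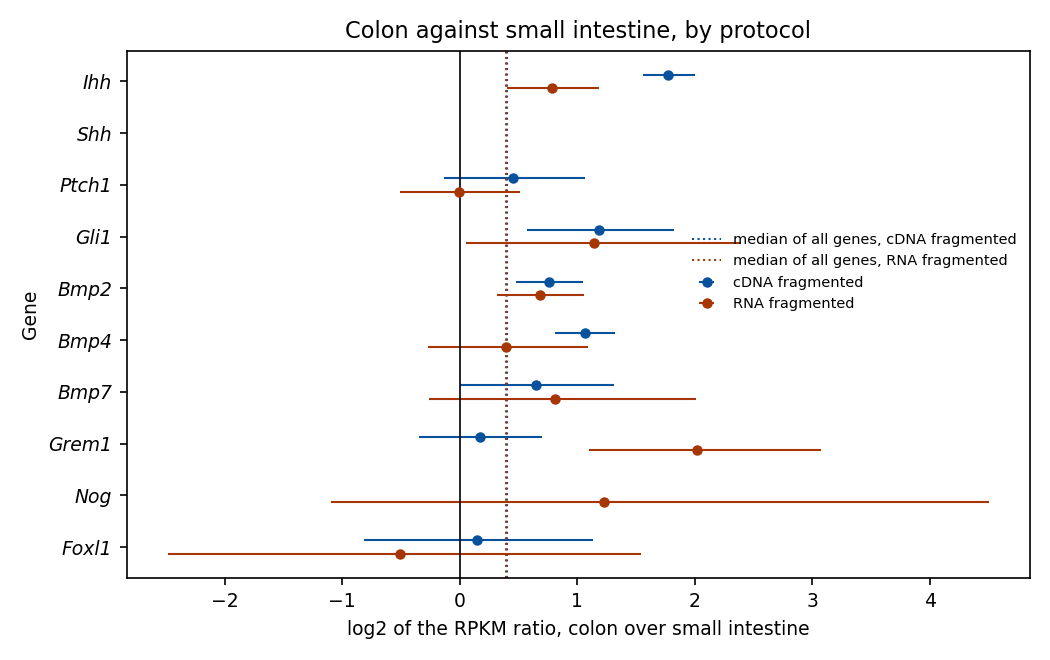
Log2 ratio of RPKM, colon over small intestine, for each gene with at least 10 reads and reads in both tissues, with 95% counting intervals as bars and dotted lines for the median of all genes (0.40 in both protocols). Ihh lies highest by cDNA fragmentation and Grem1 by RNA fragmentation, while Ptch1 and Foxl1 lie around 0, and Shh has no ratio to plot.

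The order of the levels within a library was similar. In cDNA fragmented small intestine Ihh (3.89 RPKM), Bmp4 (3.70) and Bmp2 (2.85) led, with overlapping intervals between neighbours. In cDNA fragmented colon Ihh (13.3), Bmp4 (7.74) and Bmp2 (4.83) followed each other without overlap. In both RNA fragmented libraries Bmp2 and Ihh led and overlapped each other, followed by Bmp4 in small intestine and by Grem1 (13.3) in colon. At 13.3 RPKM, Ihh stood above 74.4% of the 16249 genes present in cDNA fragmented colon, and at 0.798 RPKM Gli1 stood above 27.2% of them. A gene was called present above 0.01 RPKM if its reads began at 2 or more positions, a rule that 8, 9, 8 and 10 of the 10 genes met in the 4 libraries, in the order above. All 10, counted without a minimum of reads, had a higher RPKM in the RNA than in the cDNA fragmented library of the same tissue. Among genes with at least 10 reads in the 2 libraries, 57.8% in small intestine and 61.8% in colon did. For Shh the cDNA and RNA fragmented libraries held 0 and 1 reads in small intestine and 10 and 2 in colon. For Nog they held 1 and 2 reads in small intestine and 1 and 8 in colon.

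The position of reads along the genes differed between the protocols. By cDNA fragmentation 210 of 214 small intestine reads and 797 of 807 colon reads of Ihh lay in the last exon block, which holds 58.5% of the exon bases, against 55 of 76 and 155 of 224 by RNA fragmentation. For Gli1 all 32 and all 80 cDNA fragmented reads lay in the last exon block, and 6 of 9 and 26 of 34 by RNA fragmentation. The median start of a cDNA fragmented Gli1 read was 280 bases from the 3′ end in small intestine and 348 in colon, against 1650 and 1777 by RNA fragmentation. The cDNA fragmented medians fall within the 445 bases shared with Arhgap9, where 25 of the 32 and 48 of the 80 reads began, and which of the genes gave those reads cannot be told apart. For Ptch1 the median was 1168 and 1191 bases by cDNA and 2222 and 1869 by RNA fragmentation. The exon blocks of Ptch1 lack its last exon of 2160 bases, so these distances do not start at the transcript end. Reads in that exon were not counted. Across all genes with at least 20 reads, the median read began at 36.3% and 35.3% of the exon length from the 3′ end by cDNA and at 47.1% and 48.4% by RNA fragmentation. Ihh, at 18.4% and 16.0% by cDNA, lay nearer to its 3′ end than that median, and Grem1, at 41.6% and 41.3%, did not.

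**Figure D3:**
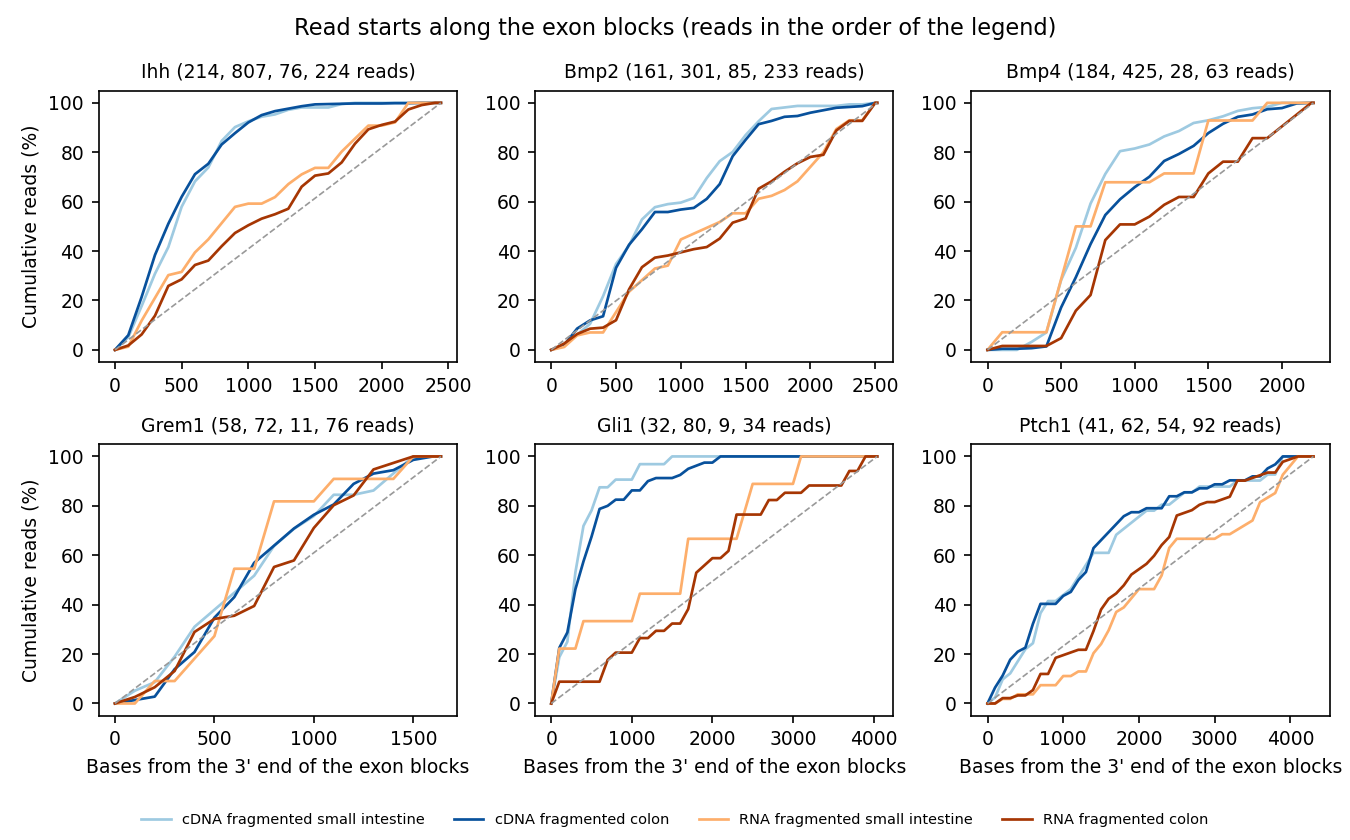
Cumulative share of read starts (percent) against the distance from the 3′ end of the joined exon blocks (bases) for 6 genes in the 4 libraries, where the dashed line marks even coverage and the titles give the reads per library. The cDNA fragmented lines of Ihh and Gli1 climb soonest, those of Ptch1 climb more slowly but lie above its RNA fragmented lines, and those of Grem1 run among the RNA fragmented lines. The exon blocks of Ptch1 lack its last exon, so its distances do not start at the transcript end.

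Strands differed by protocol as the kits imply. The RNA fragmented reads lay on the strand of the gene in 74 of 76 and 224 of 224 cases for Ihh, in all 85 and 233 cases for Bmp2 and in all 54 and 92 cases for Ptch1. By cDNA fragmentation the own-strand share was 55.6% and 54.5% for Ihh, and 48.3% and 48.2% over all genes.

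Promoter sequences of 4 of the 10 genes (Ihh, Ptch1, Bmp4 and Grem1) were found in the RefSeq table for GRCm38.p6, which gives 250 bases before and 50 after the start. The Gli consensus GACCACCCA was searched on both strands and found in none of the 4, where 0.253% of 32851 promoters held it. The Smad motif GGCGCC, which reads alike on both strands, was found in Ptch1, beginning 161 bases before the start, and in Grem1, beginning 78 bases before it, where 11.9% of all promoters held it. The 250 bases before the start of these genes are shown because they hold the motif, which is set in capitals. They lie at chr13:63565736-63565985 for Ptch1 and chr2:113758649-113758898 for Grem1, both on the minus strand of GRCm38.p6, written 5′ to 3′.
Ptch1: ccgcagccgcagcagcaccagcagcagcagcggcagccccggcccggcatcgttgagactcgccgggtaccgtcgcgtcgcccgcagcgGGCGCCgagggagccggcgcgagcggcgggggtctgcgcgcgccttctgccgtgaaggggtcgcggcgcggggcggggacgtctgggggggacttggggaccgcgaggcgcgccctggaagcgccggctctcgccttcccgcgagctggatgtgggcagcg
Grem1: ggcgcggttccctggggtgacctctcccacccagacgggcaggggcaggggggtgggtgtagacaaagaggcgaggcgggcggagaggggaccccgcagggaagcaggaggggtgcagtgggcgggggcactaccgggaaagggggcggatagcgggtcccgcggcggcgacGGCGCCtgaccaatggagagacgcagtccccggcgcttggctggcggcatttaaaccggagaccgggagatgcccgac
A match is a description of these letters and not a binding site, and no binding was measured here.

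A list of 63 further genes of the pathways was examined, of which 62 were found. By cDNA fragmentation 15 of the 55 with at least 10 reads were at least 2-fold higher in colon and 2 (Hhip and Id2) in small intestine, beside 27.1% and 9.99% of all genes. By RNA fragmentation 19 of 46 were higher in colon and 5 in small intestine, beside 29.3% and 12.8%. Of 45 that could be compared in both, 6 were higher in colon in both, among them Smo, Gli2, Boc, Scube2 and Bmp3, and 0 in small intestine, beside 14.4% and 5.24% of all genes. Under median-of-ratios size factors 2 of these 6 were left, Boc and Scube2, and Smo, Gli2 and Bmp3 fell under 2-fold by cDNA. The median log2 ratio of the list was 0.42 by cDNA and 0.55 by RNA fragmentation after 0.1 RPKM had been added, where all genes had 0.37 and 0.41.

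Among Hedgehog components, Smo, the transducer held in check by Ptch1, had 82 and 238 reads by cDNA (0.917 and 2.41 RPKM) and 36 and 282 by RNA fragmentation (4.45 and 20.4 RPKM), with ratios of 2.63 (2.04 to 3.43) and 4.58 (3.23 to 6.68). Boc, a co-receptor for Hedgehog ligands, had 18 and 181 reads and 12 and 81 reads, with ratios of 9.12 (5.61 to 15.7) and 3.95 (2.14 to 7.96). Scube2, which helps to release Hedgehog ligands from cells, had ratios of 3.25 (1.88 to 5.94) and 4.68 (1.42 to 24.3). These components were all higher in colon in both protocols.

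Hhip, a membrane protein that binds and sequesters Hedgehog ligands, had 438 and 192 reads by cDNA fragmentation (2.15 and 0.853 RPKM) and 118 and 228 by RNA fragmentation (6.39 and 7.22 RPKM). The ratio of 0.397 (0.334 to 0.472) by cDNA placed it higher in small intestine, and the RNA ratio of 1.13 (0.901 to 1.42) did not. Of its cDNA fragmented reads, 383 of 438 and 154 of 192 lay in the last of its 13 exon blocks. Hhip and Gli1, both Hedgehog targets, thus lay on different sides by cDNA fragmentation.

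Among other Gli factors, Gli2 had 9 and 20 reads by cDNA and 3 and 15 by RNA fragmentation, with ratios of 2.01 (0.877 to 5.03) and 2.93 (0.828 to 15.8), both intervals including 1. Gli3 had 87 and 115 reads and 9 and 33 reads, with ratios of 1.20 (0.899 to 1.60) and 2.15 (1.004 to 5.10). Foxf1a, a Hedgehog-dependent factor of the gut mesenchyme, had 4 and 3 reads by cDNA and 7 and 47 by RNA fragmentation, where the ratio was 3.93 (1.76 to 10.3). Of the 4 Hedgehog-dependent mesenchyme factors on the list, 3 had at least 10 reads by cDNA fragmentation. Of these 3, Osr1 alone was at least 2-fold higher in colon, beside 27.1% of all genes. The cDNA log2 ratio of Osr1 was 1.70 after 0.1 RPKM had been added. By RNA fragmentation Foxf1a alone of the 4 had a ratio above 1. The others, named here after their values were seen, had RNA ratios of 0.865 (0.495 to 1.54) for Foxf2, 0.847 (0.516 to 1.41) for Nkx2-3 and 0.878 (0.101 to 10.5) for Osr1, the last from 2 and 3 reads, with all intervals including 1.

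Among BMP ligands, Bmp3, an atypical member known to oppose BMP signalling, had 220 and 597 reads by cDNA (3.14 and 7.74 RPKM) and 73 and 357 by RNA fragmentation (11.5 and 32.98 RPKM), with ratios of 2.46 (2.10 to 2.88) and 2.86 (2.22 to 3.73). Bmp5 had 395 and 380 reads and 7 and 41 reads, with ratios of 0.872 (0.756 to 1.01) and 3.43 (1.52 to 9.05). Bmp3 was thus higher in colon in both protocols, while Bmp5 was higher in colon by RNA fragmentation and its cDNA interval includes 1.

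Among BMP antagonists and modulators, chordin (Chrd) had 5 and 27 reads by cDNA, with a ratio of 4.90 (1.86 to 16.3), and 1 and 7 reads by RNA fragmentation. The RNA fragmented reads of Chrd were too few to compare. Of the 13 antagonists and modulators with at least 10 reads by cDNA fragmentation, 4 were at least 2-fold higher in colon, beside 27.1% of all genes, and by RNA fragmentation 5 of 9 were, beside 29.3%. In small intestine 0 were at least 2-fold higher in either protocol, beside 9.99% and 12.8%.

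The BMP receptors showed no common direction. Bmpr1a had 1455 and 1013 reads by cDNA (11.8 and 7.45 RPKM) and 424 and 712 by RNA fragmentation (38.0 and 37.3 RPKM), with ratios of 0.631 (0.582 to 0.684) and 0.983 (0.870 to 1.11). Bmpr2 had 83 and 49 reads and 72 and 204 reads, with ratios of 0.535 (0.368 to 0.771) and 1.66 (1.26 to 2.20). None of the 6 Smad genes examined differed 2-fold in either protocol. Of all genes, 27.1% were higher in colon and 9.99% in small intestine by cDNA, and 29.3% and 12.8% by RNA fragmentation.

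Of the Id genes, which BMP signals switch on, Id1, Id2 and Id3 were abundant, and the 4 did not move together. Id1 lay at 119.5 and 238 RPKM by cDNA and at 62.6 and 89.9 RPKM by RNA fragmentation, with ratios of 1.99 (1.90 to 2.09) and 1.44 (1.15 to 1.80). Id2 lay at 198 and 76.6 RPKM and at 35.9 and 23.3 RPKM, with ratios of 0.387 (0.369 to 0.406) and 0.648 (0.485 to 0.867). Id3 had ratios of 1.68 (1.61 to 1.74) and 0.802 (0.557 to 1.16). Id4, named here after its values were seen, was far less abundant, at 0.965 and 1.34 RPKM by cDNA and 4.14 and 9.53 RPKM by RNA fragmentation. Its ratios were 1.39 (0.894 to 2.17) and 2.30 (1.26 to 4.48). Id1 was thus higher in colon and Id2 higher in small intestine in both protocols, Id3 had no common side, and the cDNA interval of Id4 includes 1.

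**Figure D4:**
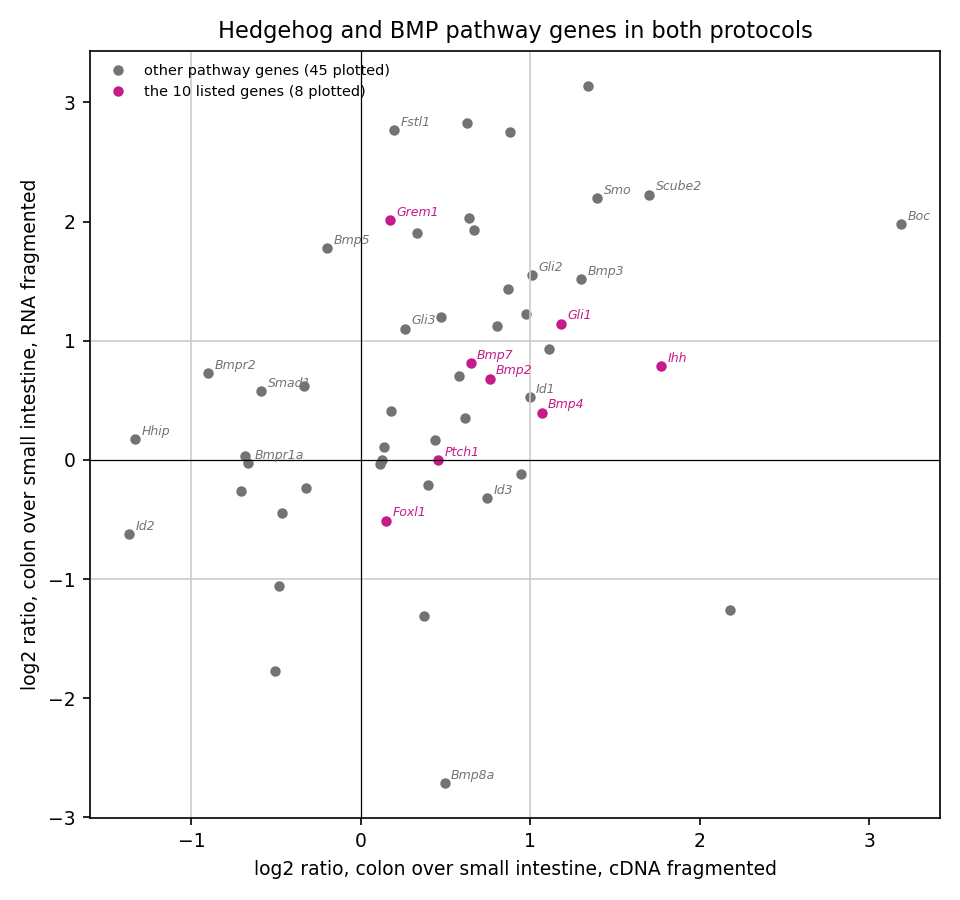
Log2 ratio of colon over small intestine by cDNA fragmentation (horizontal) and RNA fragmentation (vertical) for 8 listed genes and 45 other pathway genes with at least 10 reads in each protocol, with grey lines at 2-fold. Gli1, Smo, Gli2, Boc, Scube2 and Bmp3 lie among the genes past 2-fold in the upper right field, and no gene lies past 2-fold in the lower left field.

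The tissues also differed in markers of cell types that carry these signals, though not in every list and protocol. Of 8 smooth muscle markers, 7 were at least 2-fold higher in colon in both protocols, beside 14.4% of all genes. The 8 summed to 364 and 1336 RPKM by cDNA and to 304 and 2571 RPKM by RNA fragmentation. Acta2, smooth muscle actin, had 101 and 335 RPKM by cDNA and 56.0 and 444 RPKM by RNA fragmentation. The 8 stroma markers summed to 249.7 and 291 RPKM by cDNA and to 87.2 and 349 RPKM by RNA fragmentation. Of these 8, 1 was at least 2-fold higher in colon by cDNA, below the share of 27.1% over all genes. By RNA fragmentation 5 were, beside 29.3%. The 8 markers of enteric neurons and glia summed to 10.4 and 25.6 RPKM and to 7.45 and 38.1 RPKM, with Sox10 at 0 reads in cDNA fragmented and S100b in RNA fragmented small intestine. Fat markers summed to 76.0 and 367 RPKM and to 34.2 and 187 RPKM. The part of these differences in the values of Gli1, Grem1, Bmp4 and the other mesenchymal genes was not tested.

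Markers of all epithelium, which makes Ihh, summed to 10007 and 5307 RPKM by cDNA and to 4731 and 6679 RPKM by RNA fragmentation, and their median log2 ratio was 0.06 and -0.31. Cdh1, the epithelial cadherin, lay at 75.7 and 86.4 RPKM by cDNA and at 137 and 98.4 RPKM by RNA fragmentation. The list was split. By cDNA Krt18 and Krt19 were at least 2-fold higher in colon and Krt20 and Vil1 in small intestine. By RNA fragmentation Krt8, Krt18 and Krt19 were at least 2-fold higher in colon and Krt20, Vil1 and Cldn7 in small intestine. Of all genes, 27.1% were higher in colon and 9.99% in small intestine by cDNA, and 29.3% and 12.8% by RNA fragmentation. Endothelial markers had a median of -0.13 and 0.86. Markers of the pancreatic acinar cell stood apart, with a summed 0.1504 and 209 RPKM in cDNA fragmented small intestine and colon and 1578 and 2.91 RPKM in the RNA fragmented libraries. Amy2a5 was at 0 in all 4 libraries, and Cpa1, Pnlip and Prss2 were at 0 in cDNA fragmented small intestine. Their part in the values above was not tested.

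**Figure D5:**
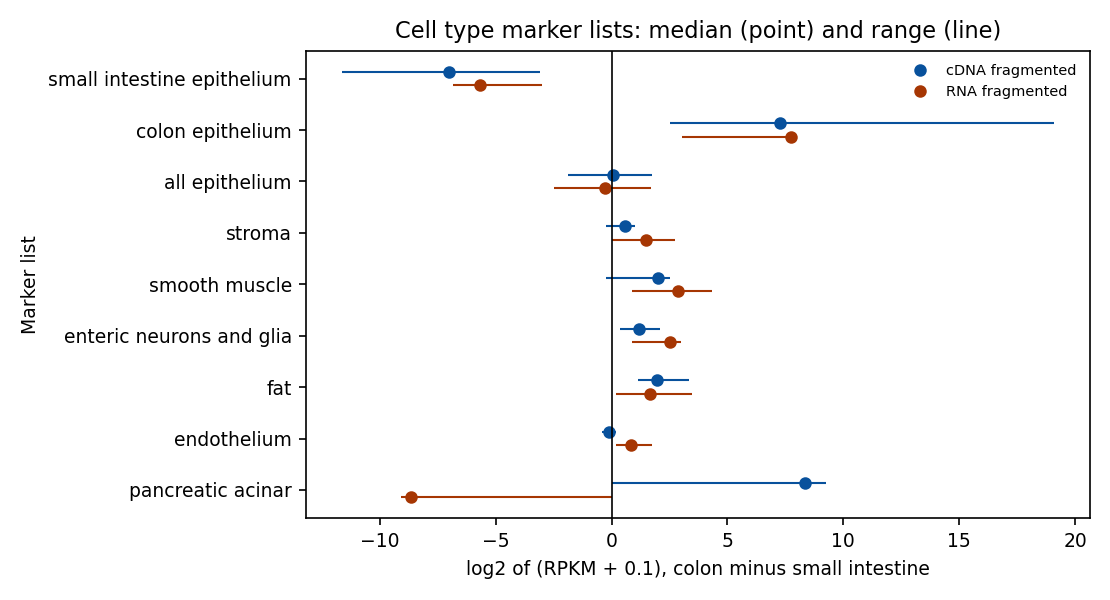
Median (point) and range (line) of the difference in log2 of RPKM plus 0.1, colon minus small intestine, for 9 lists of cell type markers in both protocols. Smooth muscle lies at 2.02 by cDNA and 2.85 by RNA fragmentation, and the pancreatic acinar list lies at 8.35 and -8.65. The median of all epithelium lies near 0, with a range that reaches to both sides.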

How the data were processed

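Matched reads of 4 libraries, 1 per tissue and protocol, were used. The deposited match files give for each read its position, its strand and its number of mismatches, without normalization. SOLiD reads had been matched by the authors, over 35 colors with up to 3 color mismatches, to merged RefSeq exons of mm9 and to exon-exon junctions with 28 bases on each side, and only uniquely placed reads were kept. The deposited numbers of reads equal the counts made here. Jejunum and distal colon are named in the methods of the study, which also describe polyadenylated RNA for RNA fragmentation, where the labels give ribosomal RNA depletion.

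Exon blocks were joined into genes through the junction table and named from GENCODE M1 (build NCBIM37, the same as mm9). A read was assigned by its start to a block, and starts up to 3 bases outside a block were accepted. RPKM used all uniquely placed reads of a library. Regions outside the exon table, both strands of cDNA fragmented reads and copies of a gene can change a count. Ratios are given where at least 10 reads were found, except for Osr1 by RNA fragmentation, which had fewer. All have exact conditional intervals. Levels have exact Poisson and shares Wilson intervals, all at 95%, and where no read was found the limit is that of 3 reads in that library.

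The 10 genes, the other pathway genes and the marker lists were chosen with earlier results of these data known. All 10 genes are named with their values, as are Hhip, Smo, Gli2, Gli3, Foxf1a, Bmp3, Bmp5, Bmpr1a, Bmpr2, Chrd, Id1, Id2 and Id3. Up to 10 more were to be named if at least 2-fold different in the same direction in both protocols with at least 20 reads in each, which added Boc and Scube2. Values of some genes that these rules name are not reported here. Disp1 and Muc2 were not analysed here. Alternatives were another scaling, start points, at most 1 mismatch, thinning of the deeper library, own-strand reads, unshared exon blocks and other thresholds. The 2-fold call rule was tested on simulated read counts per gene, and the assignment of reads to exon blocks was not part of that test. Python 3.11.15, pandas 2.3.3, numpy 2.4.6, scipy 1.17.1 and matplotlib 3.10.9 were used.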

Additional observations from a re-analysis of the deposited data

Results flagged for a closer look

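Among the listed genes, Ptch1 and Foxl1 lay on opposite sides in the 2 protocols. The log2 ratio of colon over small intestine of Ptch1 was 0.46 by cDNA and -0.0044 by RNA fragmentation, and that of Foxl1 was 0.15 and -0.51, and all 4 intervals include 0. The differences between the protocols were not tested.

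Of the other pathway genes, 3 lay on opposite sides with counting intervals that exclude 0 in both protocols. Bmpr2, the type II BMP receptor, had a log2 ratio of -0.90 by cDNA and 0.73 by RNA fragmentation. For Smad1, which BMP receptors activate, the values were -0.59 and 0.58. Bmp8a, a BMP ligand with the close copy Bmp8b, had 0.49 and -2.71, the latter from 23 and 6 reads. These differences were not tested either, and mice and protocols cannot be told apart in them.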

How the results depend on the processing

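Of 164 recomputed counts 135 stayed within 1.5 times the reported count, of 106 recomputed log2 ratios of listed genes 97 stayed within the counting interval, and of 126 recomputed marker medians 101 did. No called ratio changed sign. Unless a setting itself removes reads or genes, the cause of a shift was not tested. No fit of tissue with protocol as a block was run. It would leave 1 residual degree of freedom, and the ratios of both protocols are given side by side instead. With 1 library per tissue and protocol, no library was left out.

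Median-of-ratios size factors gave 0 listed genes past the penalised 3-fold rule for colon by RNA fragmentation, 2 past 2-fold by cDNA and 1 by RNA fragmentation, 2 other pathway genes past 2-fold for colon in both protocols and 6 for small intestine by cDNA. They moved the cDNA log2 ratios of Ihh to 1.37, of Bmp2 to 0.36 and of Bmp4 to 0.66. The cDNA marker medians became -7.43 for small intestine epithelium, -0.34 for all epithelium, 0.17 for stroma, 1.62 for smooth muscle and -0.51 for endothelium, and the RNA medians -6.01, -0.65, 1.16 and 2.51 for the first 4 of these.

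Start points in place of reads gave 2 listed genes for colon by cDNA and 1 by RNA fragmentation, 1 other pathway gene for small intestine by cDNA and 3 by RNA fragmentation, and a Bmp2 log2 ratio of 0.29 by RNA fragmentation. Medians became -4.72 (small intestine epithelium), -0.050 (all epithelium) and 0.83 (smooth muscle) by cDNA, and -3.60, -0.45 and 1.35 by RNA fragmentation, with 3.08 for colon epithelium and 1.03 for stroma.

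With at most 1 color mismatch, 0 listed genes passed the penalised rule for colon by RNA fragmentation, 2 other pathway genes were higher in small intestine by RNA fragmentation, Bmp2 had a log2 ratio of 1.19 by RNA fragmentation, and cDNA medians were 0.12 for all epithelium and 1.96 for smooth muscle. Thinning the deeper library gave 0 and 2 for these counts. Grem1 was the gene lost to the penalised rule. Own-strand reads alone gave 2 listed genes for colon and 4 other pathway genes for small intestine by cDNA, 1.21 for Bmp2 and 0.75 for Bmp4 by cDNA, and 1.88 for smooth muscle. Exon blocks that share no base with another gene left Bmp4 at 2.08 by cDNA. Without the bases of Arhgap9, a setting chosen after seeing the data, Gli1 had 2.05 by cDNA.

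The count of listed genes past 2-fold for colon in both protocols, 1 as reported, was 0 under median-of-ratios size factors, start points, at most 1 mismatch, own-strand reads and unshared exon blocks, the last of which drop the block with all cDNA fragmented reads of Gli1, and 4 at a fold of 1.5.

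A penalty of 0.1 RPKM gave 1 listed gene past 3-fold for colon by cDNA, and a penalised fold of 2 gave 1. With at least 20 reads, 3 other pathway genes were higher in small intestine by RNA fragmentation. At a fold of 1.5, 6 listed genes were higher in colon by RNA fragmentation, 26 other pathway genes by cDNA and 14 in both protocols, and 7 were higher in small intestine by cDNA and 1 in both. With 1 RPKM added, medians were -6.13 (small intestine epithelium), 0.64 (enteric neurons and glia), 1.88 (smooth muscle) and 5.44 (pancreatic acinar) by cDNA, and 6.17 for colon epithelium by RNA fragmentation.

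Nog and Foxl1 had too few reads for a direction, as had Shh by RNA fragmentation. The depth of the RNA fragmented libraries limits Gli1, Bmp7 and Grem1 in small intestine to 9, 10 and 11 reads.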

Other observations

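Msx2, a homeobox gene switched on by BMP signals, was picked here after its values were seen. It had 23 reads in small intestine and 416 in colon by cDNA fragmentation, a ratio of 16.4 (10.8 to 26.2), but 1 and 0 reads by RNA fragmentation. The 416 colon reads came from 23 start points, 119 of them from 1 position, and all lay in the last of its 2 exon blocks. In small intestine 10 start points gave the 23 reads. By start points the tissues were thus closer than by reads.

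Fstl1, a secreted protein that binds BMP ligands, was also picked after its values were seen. It lay at 22.8 and 26.1 RPKM by cDNA fragmentation and at 6.67 and 45.3 RPKM by RNA fragmentation, with ratios of 1.15 (1.08 to 1.22) and 6.79 (5.07 to 9.29). Fstl1 and Grem1 each had a larger colon ratio by RNA than by cDNA fragmentation, whereas Ihh had a smaller one. Bmp4 also had a smaller one, but its intervals overlapped between the protocols. By start points the log2 ratios of Bmp4 were 0.88 by cDNA and 0.87 by RNA fragmentation.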
